A study of Homo sapiens with 16 samples.

Results

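RNA of HCT116 cells carrying a short hairpin RNA (shRNA) against CDK8 was compared with RNA of HCT116 cells carrying an shRNA against TIP60, both after 24 h of hypoxia at 1% oxygen. The comparison used 4 of the 16 libraries of the study, 2 per line, taken by the line and oxygen level in the headers of the count table. HCT116 is an established human colorectal carcinoma line. The study had 8 groups of 2 libraries, described as independent biological replicates: lines stably expressing a non-targeting shRNA (shNT), shTIP60 or shCDK8 and a HIF1A-null line, each in hypoxia or in normoxia at 21% oxygen. All were grown in the same medium; the compared cells share the parental line, the medium and a stably expressed shRNA. Each target was represented by a single knockdown line, so loss of the target cannot be told apart from other effects of that shRNA or from the history of that line.

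CDK8 is a cyclin-dependent kinase of the Mediator complex, which links transcription factors to RNA polymerase II. TIP60, encoded by KAT5, is the acetyltransferase of the NuA4 chromatin complex, which acetylates histones and also acts in DNA repair. Both are known as cofactors of hypoxia-inducible factor (HIF), the oxygen-regulated transcription factor that raises genes of glycolysis, pH control and blood vessel growth when oxygen is low. The comparison asked how the transcriptomes of cells short of one or the other cofactor differ in hypoxia.

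The targeted genes were checked first. CDK8 (chromosome 13, 26828241 to 26995119, 13 exons) was at 5.84 and 5.45 CPM (counts scaled by library size and composition) in the shCDK8 hypoxia libraries and at 26.9 and 24.9 CPM in the shTIP60 hypoxia libraries, with 27.9 and 28.3 CPM in shNT. The log2 fold change of shCDK8 over shTIP60 was -2.20 ± 0.14 (SE, 2 libraries per group, adjusted p = 1.52e-08). KAT5 (chromosome 11, 65479467 to 65487075, 13 exons) was at 22 and 21.0 CPM in shTIP60, 72.0 and 88.7 CPM in shCDK8 and 87.5 and 93.6 CPM in shNT, a log2 fold change of 1.90 ± 0.13 (adjusted p = 3.07e-08). Each target was low in both libraries of its own knockdown and near the shNT level in the other line. Coordinates are on GRCh37. Fold changes below are always shCDK8 over shTIP60 unless another pair is named, so positive values mean a higher level in shCDK8.

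The 16 libraries held 26620086 to 39401494 counts, and the compared libraries 38377063 and 37699048 (shCDK8) and 34233119 and 34122226 (shTIP60). A count of 3 corresponded to 0.0810 to 0.0921 CPM in these 4 libraries. The epithelial and colon carcinoma markers summed to 9525 and 9698 CPM in shCDK8 and to 11611 and 11343 CPM in shTIP60, with 14 of 20 markers over 1 CPM. Of the 16 tested, 5 were lower in shCDK8 (18.1% of all genes tested were), among them the intestinal keratins KRT20 (-3.76 ± 0.37) and KRT19 (-0.77 ± 0.16). The 5 became 3 without shCDK8 hypoxia library A or B or shTIP60 hypoxia library A (A and B denote the lower- and higher-numbered library of a group). Blood cell markers summed to 63.9 and 82.3 CPM in shCDK8 and to 102 and 119 CPM in shTIP60. Most of that was CD68, which had 62.8 and 80.5 CPM against 99.1 and 117 CPM and is also expressed outside blood cells. The 9 endothelial markers summed to 11.9 to 14.1 CPM and the 18 mesenchymal markers to 138 to 167 CPM in the 4 libraries. Their part in the results was not tested.

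A total of 5618 of 15520 genes tested differed between the lines in hypoxia (36.2%, adjusted p under 0.05, here termed called), 2815 higher in shCDK8 (18.1%) and 2803 lower (18.1%). The large differences were mostly on one side. Of the called genes, 1480 were at least 2-fold lower in shCDK8 and 665 at least 2-fold higher, and 682 were at least 4-fold lower against 162 at least 4-fold higher. The median size of a called difference was 0.81 on the log2 scale, and 1488 calls were under 1.5-fold. Both libraries of shCDK8 lay above both of shTIP60 for 39.7% of the genes tested and below both for 35.9%. The number of calls rested in part on the replicates: it was 3532 without shTIP60 hypoxia library A and 3644 without shTIP60 hypoxia library B. Tested against a 1.5-fold change in place of 0, 638 genes were higher and 1203 lower.

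The higher genes with the largest fold changes included a membrane protein, a ubiquitin ligase, a secreted ligand and a transcription factor. TM4SF18 (chromosome 3, 149036285 to 149052201), a tetraspanin-like membrane protein, was at 17.2 and 20.8 CPM in shCDK8 and at 0.0921 and 0.0913 CPM, the level of 3 counts, in shTIP60 (log2 fold change 7.64 ± 0.44). RNF43 (chromosome 17, 56431037 to 56494956), a ubiquitin ligase that removes Wnt receptors from the cell surface, had 149 and 139 CPM against 2.49 and 1.31 CPM (6.25 ± 0.23, adjusted p = 3.08e-11). In shNT it had 109 and 99.3 CPM, so the shTIP60 libraries were the ones that stood apart. NRG1 (chromosome 8, 31496738 to 32713184), the neuregulin ligand of ERBB receptors, had 65.9 and 78.8 CPM against 1.69 and 1.4 CPM (5.55 ± 0.26), with 4 and 5.89 CPM in shNT. Here the shCDK8 libraries were far above both other lines, and the shNT libraries also lay above those of shTIP60. SOX4 (chromosome 6, 21593982 to 21598850, a single exon), a transcription factor of progenitor cells, had 311 and 319 CPM against 14.1 and 14.6 CPM (4.46 ± 0.13, adjusted p = 4.48e-12), and shNT lay between them at 72.1 and 68.2 CPM.

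The other genes of the 12 most raised, except COL17A1, followed these 3 arrangements. PDE4B, a cyclic AMP phosphodiesterase, had 208 and 204 CPM against 8.23 and 9.25 CPM (4.56 ± 0.18), with 124 and 139 CPM in shNT. DACT1, a Wnt pathway regulator, and COBLL1 were likewise near the shNT level in shCDK8 and low in shTIP60, with log2 fold changes of 5.07 ± 0.43 and 4.63 ± 0.32. COL17A1, a collagen of epithelial attachment, had 78.8 and 49.1 CPM in shCDK8 against 2.52 and 2.34 CPM in shTIP60 (4.72 ± 0.41), and shNT was at 2.14 and 1.19 CPM. VSNL1 (6.45 ± 0.39), a neuronal calcium sensor, MECOM (5.47 ± 0.40), a zinc finger transcription factor, MAL2 (5.46 ± 0.19), a protein of apical membrane traffic, and TNFSF18 (5.02 ± 0.55), a ligand of the tumour necrosis factor family, were highest in shCDK8 and lowest in shTIP60, with shNT between. None of the libraries of the compared groups overlapped for these 12 genes, which the rule for naming them required.

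On the lower side, 4 leading genes were at or under the level of 3 counts in shCDK8. ZNF614 (chromosome 19, 52516018 to 52533493), a zinc finger gene, had 0 counts in both shCDK8 libraries and 5.90 and 5.54 CPM in shTIP60, at least 138.0-fold lower against a floor of 3 counts over the group, and shNT had 5.59 and 6.22 CPM. GJA1 (chromosome 6, 121756741 to 121770873), the gap junction protein connexin 43, had 2 counts over both shCDK8 libraries and 38.8 and 46.6 CPM in shTIP60, a ratio of shTIP60 to shCDK8 of 1547 (95% counting interval 428 to 12784). It had 0 counts in the shNT hypoxia libraries, so that it was present in shTIP60 and nearly absent from both other lines. ALPP (chromosome 2, 233243434 to 233247599), placental alkaline phosphatase, had 31.8 and 39.6 CPM in shTIP60 and 2 counts in shCDK8 (ratio 1293, 358 to 10686). Its near-identical neighbour ALPPL2 had 3.99 and 7.30 CPM in shTIP60, and how reads were divided between the pair is uncertain. ITGAD (chromosome 16, 31404656 to 31437826), an integrin alpha chain of leukocytes, had 11.6 and 12.2 CPM in shTIP60 and 2 counts in shCDK8 (ratio 431, 119 to 3568). These intervals and floors cover counting error only.

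F10 (chromosome 13, 113777113 to 113803843), coagulation factor X, had 0.108 and 0.0847 CPM in shCDK8, 30.6 and 29.7 CPM in shTIP60 and 22.5 and 19.6 CPM in shNT (-8.23 ± 0.35). SERPING1, the inhibitor of complement C1, showed the same arrangement, with 12 and 12.3 CPM in shTIP60, 6.28 and 9.39 CPM in shNT and at most 0.135 CPM in shCDK8 (-7.38 ± 0.55). The class II antigen presentation genes HLA-DRA (-6.45 ± 0.39) and HLA-DPA1 (-6.25 ± 0.31) were at 7.76 to 11.9 CPM in shTIP60 and at 0.0564 to 0.169 CPM in shCDK8. EDN2 (-5.97 ± 0.36), the peptide endothelin 2, HPD (-6.19 ± 0.43), an enzyme of tyrosine breakdown, and CACNG7 (-6.83 ± 0.43), a calcium channel subunit, were high only in shTIP60 among the 3 shRNA lines, at 8.42 to 16.4 CPM there and under 1.5 CPM in every shCDK8 and shNT hypoxia library.

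**Figure D1:**
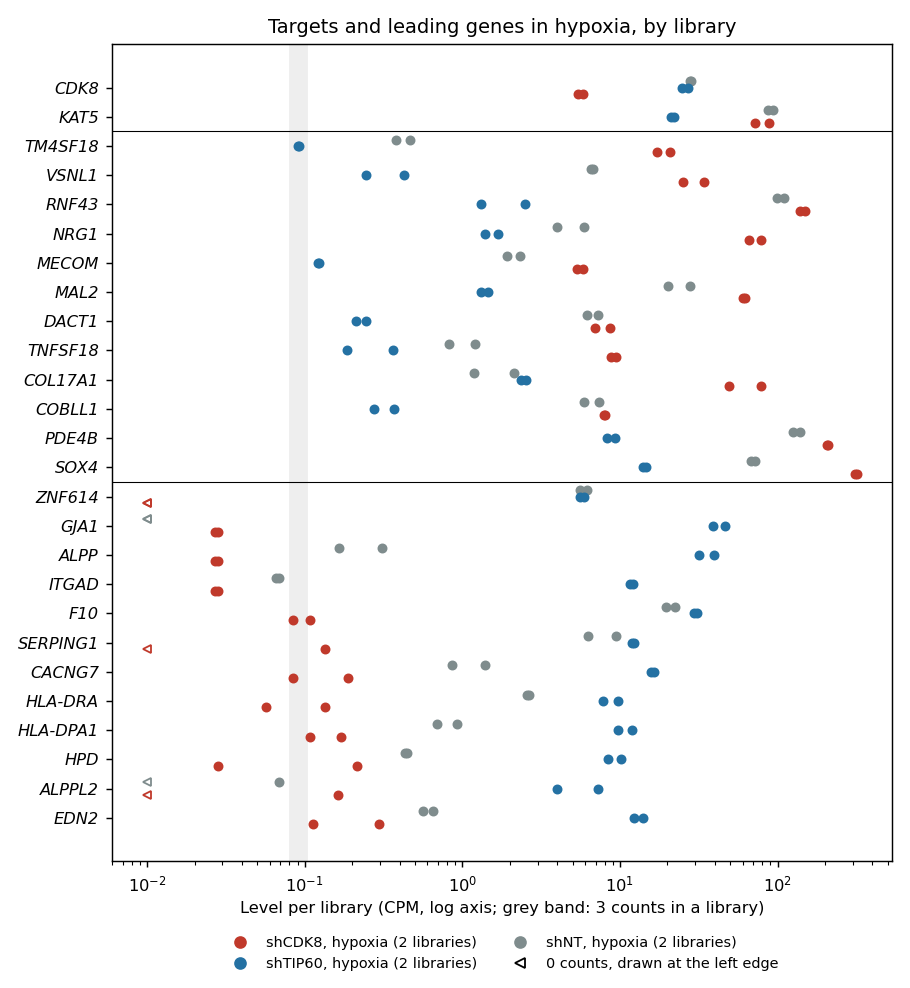
Level in CPM (log axis) of the targeted genes (top), the 12 genes most raised (middle) and the 12 most lowered (bottom) in shCDK8 relative to shTIP60, with a point for each of the 2 hypoxia libraries of shCDK8, shTIP60 and shNT; open triangles are libraries with 0 counts, and the grey band marks 3 counts in a library. RNF43 and PDE4B have shNT near shCDK8, and F10 and ZNF614 have shNT near shTIP60. COL17A1 has shNT near shTIP60 with shCDK8 far above, and NRG1 has shNT above shTIP60 with shCDK8 far above both.

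Genes of DNA replication, mitosis and double-strand break repair were higher in shCDK8 as groups. Of 32 DNA replication and E2F target genes, 28 were called higher (18.1% of all genes tested were) and the other 4 did not pass, all 32 had a positive fold change, and the median was 0.90 against 0.03 for all genes. CCNE2, the cyclin E2 that starts replication, had 17.3 and 13.3 CPM in shCDK8 and 3.47 and 3.68 CPM in shTIP60 (2.10 ± 0.23, adjusted p = 5.71e-06). CLSPN, a replication checkpoint adaptor, had 28.2 and 24.1 CPM against 8.51 and 6.63 CPM (1.79 ± 0.28). The clamp loader subunits RFC3 (27.2 and 29.9 against 12.6 and 15.2 CPM, 1.04 ± 0.16) and RFC4 (44.4 and 51.3 against 22.8 and 22 CPM, 1.10 ± 0.16) were about 1 log2 unit higher. In every one of the 32 genes both shCDK8 libraries lay above both shTIP60 libraries, which held for 39.7% of all genes tested.

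Of 28 mitosis genes, 24 were called higher (18.1% of all genes were), with a median of 0.79. BIRC5, the survivin subunit of the chromosomal passenger complex, had 275 and 270 CPM against 113 and 106 CPM (1.31 ± 0.19). CCNB1, the mitotic cyclin B1, had 225 and 234 CPM against 124 and 120 CPM (0.91 ± 0.14), and the microtubule motor KIF2C (1.01 ± 0.16) and spindle factor TPX2 (0.87 ± 0.14) were higher as well. Of 26 genes of double-strand break repair, 18 were called higher (18.1% of all genes were), with a median of 0.64. RBBP8, the end resection factor CtIP, had 102 and 107 CPM against 25.6 and 26.5 CPM (2.00 ± 0.16). BLM (1.72 ± 0.17) and BARD1 (1.52 ± 0.19), a helicase and the partner of BRCA1, were also higher. With the replicate block 1 repair gene was called lower.

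These groups stood differently against shNT, whose libraries both contrasts share. Of the 32 replication genes, 20 were called higher in shCDK8 than in shNT (14.4% of all genes were), with a median of 0.67, while in shTIP60 against shNT 1 was higher and 3 were lower (11.3% and 10.5% of all genes), with a median of -0.20. Of the 28 mitosis genes, 1 was higher and 2 were lower in shCDK8 against shNT (14.4% and 13.4% of all genes, median 0.14). In shTIP60 against shNT 24 were lower (10.5% of all genes, median -0.71). Of the 26 repair genes, 11 were higher and 0 lower in shCDK8 against shNT (median 0.45). In shTIP60 against shNT 0 repair genes were higher and 4 lower (median -0.32). Leaving out any 1 of the 4 compared libraries left 22 to 26 replication genes, 19 to 23 mitosis genes and 12 to 14 repair genes called higher in the direct comparison.

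In 250 bases upstream of the annotated start, 12 of the 27 replication genes with a promoter entry held the E2F letters TTTCCCGC or TTTGGCGC on either strand, 44.4% of them against 3.71% of all 11507 tested genes with an entry. The list was chosen to hold E2F targets, so this share describes the list and not the comparison. Among genes with an entry called at least 2-fold higher in shCDK8, 29 of 514 held the letters (5.64%). Of those at least 2-fold lower, 16 of 994 did (1.61%). The RFC3 promoter (chr13:34392036-34392285, plus strand) and the GINS2 promoter (chr16:85722561-85722810, minus strand) are shown because both genes were called higher and hold the motif. GINS2, a subunit of the replicative helicase, had a log2 fold change of 0.91. Sequences are from RefSeq (GRCh38.p14 table), were placed on GRCh37 by exact match, run 5′ to 3′ on the gene's strand up to the base before the start, and have the motif in capitals, its first base at -55 in RFC3 and -31 in GINS2.
RFC3: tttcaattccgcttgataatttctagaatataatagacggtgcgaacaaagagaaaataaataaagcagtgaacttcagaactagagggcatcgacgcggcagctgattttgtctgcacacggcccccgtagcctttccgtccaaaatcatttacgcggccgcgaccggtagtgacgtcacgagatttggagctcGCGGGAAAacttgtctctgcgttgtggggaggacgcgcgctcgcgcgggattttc
GINS2: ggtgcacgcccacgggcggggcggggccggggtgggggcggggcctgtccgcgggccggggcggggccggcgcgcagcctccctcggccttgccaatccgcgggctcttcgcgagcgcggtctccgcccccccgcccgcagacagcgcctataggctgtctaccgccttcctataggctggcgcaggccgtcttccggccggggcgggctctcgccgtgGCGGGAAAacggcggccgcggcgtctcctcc

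HIF target genes moved the other way. Of 45 listed HIF targets outside glycolysis, 42 were tested, 20 were called lower in shCDK8 (18.1% of all genes were) and 4 higher, and the median was -0.51. The carbonic anhydrases of pH control were among the most lowered: CA12 had 6.46 and 5.53 CPM in shCDK8, 54.4 and 56.1 CPM in shTIP60 and 11.1 and 10.6 CPM in shNT (-3.20 ± 0.16, adjusted p = 8.53e-10). CA9 had 6.38 and 7.34 CPM against 32.7 and 29.4 CPM (-2.18 ± 0.24), with 56.0 and 44.2 CPM in shNT. CA12 was thus highest in shTIP60, and CA9 was highest in shNT and lowest in shCDK8. STC2, the secreted stanniocalcin 2, had 194 and 199 CPM against 818 and 777 CPM (-2.02 ± 0.21), and CITED2, a HIF-induced competitor for the coactivator p300, had 50.4 and 48.6 CPM against 155 and 123 CPM (-1.49 ± 0.16).

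VEGFA, the vascular endothelial growth factor, had 244 and 245 CPM against 484 and 401 CPM (-0.86 ± 0.14), the secreted lipase inhibitor ANGPTL4 had 659 and 783 CPM against 1308 and 1230 CPM (-0.82 ± 0.19), and ADM had 391 and 490 CPM against 678 and 680 CPM (-0.62 ± 0.17). DDIT4, an inhibitor of mTOR signalling, had 872 and 1115 CPM against 2033 and 2086 CPM (-1.05 ± 0.20). The chemokine receptor CXCR4 was among the 4 called higher, at 7.27 and 8.02 CPM against 3.62 and 3.32 CPM (adjusted p = 0.00906), and its level was higher still in shNT at 9.73 and 20.7 CPM. VEGFA, ANGPTL4, ADM, DDIT4 and CXCR4 were singled out after their values were seen. Against shNT, 24 of the 42 were called lower in shCDK8 (13.4% of all genes were; median -0.57), and 6 were higher and 6 lower in shTIP60 (11.3% and 10.5% of all genes; median 0.00). The number called lower was 14 to 22 without any 1 of the compared libraries. The number called higher was 2 without shCDK8 library A, shCDK8 library B or shTIP60 library A and 1 without shTIP60 library B.

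Of 26 genes of glycolysis and lactate export, 7 were called lower (18.1% of all genes were) and the others did not pass, with a median of -0.18. The glucose transporter SLC2A3 had 46.1 and 77.1 CPM in shCDK8, 1439 and 1431 CPM in shTIP60 and 241 and 266 CPM in shNT (-4.54 ± 0.24), though its near-identical copy SLC2A14 makes its count uncertain. GPI had 2570 and 2533 CPM against 5108 and 4730 CPM (-0.95 ± 0.17), and PFKFB4 (-0.66 ± 0.13) and ALDOC (-0.81 ± 0.18), enzymes of the fructose phosphate steps, were also lower. LDHA, which makes lactate, had 2352 and 2554 CPM against 2880 and 2627 CPM, and its fold change of -0.17 ± 0.15 did not pass (adjusted p = 0.409). The count of glycolysis genes called lower was 4 without shCDK8 library A, and with the replicate block 1 was called higher.

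Most genes of the HIF machinery itself did not pass. HIF1A, the oxygen-regulated subunit, had 53.4 and 59.8 CPM in shCDK8 and 50.6 and 51.8 CPM in shTIP60, and its fold change of 0.14 ± 0.15 did not pass (adjusted p = 0.481). Of 10 HIF subunits, hydroxylases and VHL, 1 was called higher and 2 lower (18.1% of all genes in each direction). ARNT2, a partner of the oxygen-regulated subunits, was the one called higher (0.65 ± 0.17, adjusted p = 0.00642), which did not hold without shCDK8 library A (adjusted p = 0.129) or shTIP60 library B (0.0555). EPAS1, which encodes HIF-2 alpha, was called lower (-0.39 ± 0.13, adjusted p = 0.0254), which did not hold without shCDK8 library A (0.132), shCDK8 library B (0.0806) or shTIP60 library B (0.191). HIF3A, a further alpha subunit, was the other one called lower, at 0 and 0.141 CPM against 0.584 and 0.761 CPM (-3.21 ± 0.79, adjusted p = 0.0047). It was under 1 CPM in all 4 libraries, and its fold change was -2.22 without shCDK8 library A. HIF1AN, the asparagine hydroxylase, did not pass (-0.27 ± 0.11, adjusted p = 0.0818), and passed with the library number series as a replicate block (adjusted p = 0.0441), with DESeq2 (0.0194), with the filter at a mean of 5 CPM (0.0204) and with only the groups compared (0.00896).

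The HIF core letters ACGTG or GCGTG occurred on either strand in the 250 upstream bases of 30 of the 34 HIF targets outside glycolysis that had an entry (88.2%) and in 63.4% of all tested genes with an entry. The list was chosen to hold HIF targets, so this share describes the list and not the comparison. Among genes with an entry called at least 2-fold lower in shCDK8, 507 of 994 held the letters (51.0%). Of those at least 2-fold higher, 304 of 514 did (59.1%). Both shares were below that of all tested genes. The CA12 promoter (chr15:63674046-63674295, minus strand) and the STC2 promoter (chr5:172755418-172755667, minus strand) are shown as those of the 2 genes of this list with the smallest adjusted p, with matches in capitals, which begin at -234 in CA12 and at -235, -231 and -222 in STC2.
CA12: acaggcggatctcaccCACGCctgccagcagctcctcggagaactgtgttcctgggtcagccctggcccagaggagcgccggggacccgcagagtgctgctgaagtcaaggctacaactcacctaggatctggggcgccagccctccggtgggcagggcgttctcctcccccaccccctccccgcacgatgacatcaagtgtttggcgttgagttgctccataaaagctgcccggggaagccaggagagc
STC2: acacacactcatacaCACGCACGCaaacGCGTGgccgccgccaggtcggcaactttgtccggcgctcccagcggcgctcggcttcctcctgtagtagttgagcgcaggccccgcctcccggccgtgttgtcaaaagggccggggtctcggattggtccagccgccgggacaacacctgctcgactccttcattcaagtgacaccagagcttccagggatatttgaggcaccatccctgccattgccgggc

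Interferon-stimulated genes, whose products restrict viruses, were lower in shCDK8. Of 31 tested, 17 were called lower (18.1% of all genes were) and the others did not pass, with a median of -0.78. IFIT1, which binds foreign RNA, had 1.73 and 2.23 CPM in shCDK8 against 13.3 and 11.8 CPM in shTIP60 (-2.66 ± 0.31), with 6.83 and 5.75 CPM in shNT. IFITM1, a membrane protein that blocks viral entry, had 5.32 and 6.12 CPM against 21.8 and 24.1 CPM (-2.0 ± 0.19), with 13.6 and 15.6 CPM in shNT, and its reads may be shared with near-identical IFITM genes. SAMD9 (-1.94 ± 0.30) and HERC6 (-1.17 ± 0.18) were lower as well. For IFIT1 and IFITM1 shNT lay between the lines, and shTIP60 was highest. Against shNT, 15 of the 31 were called higher in shTIP60 (11.3% of all genes were; median 0.59). In shCDK8 against shNT 4 were higher and 7 lower (14.4% and 13.4% of all genes; median -0.26), so the share called higher was near that of all genes. ISG15 (0.25 ± 0.25), chosen after its values were seen, did not pass in the direct comparison. The number called lower was 14 to 16 without any 1 of the compared libraries.

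The interferon response letters, GAAA and another GAAA with any 2 bases between them on either strand, were in the 250 upstream bases of 17 of the 24 listed genes with an entry (70.8%) and of 3.39% of all tested genes with an entry. The list was chosen to hold interferon-stimulated genes, so this share describes the list and not the comparison. Among genes with an entry called at least 2-fold lower in shCDK8, 40 of 994 held the letters (4.02%). Of those at least 2-fold higher, 16 of 514 did (3.11%). The IFIT1 promoter (chr10:91152130-91152379, plus strand) and the IFITM1 promoter (chr11:313790-314039, plus strand) are shown as examples of called genes with the motif, in capitals, whose first bases are at -116 and -103 in IFIT1 and at -40 in IFITM1. A match describes the letters and shows no binding.
IFIT1: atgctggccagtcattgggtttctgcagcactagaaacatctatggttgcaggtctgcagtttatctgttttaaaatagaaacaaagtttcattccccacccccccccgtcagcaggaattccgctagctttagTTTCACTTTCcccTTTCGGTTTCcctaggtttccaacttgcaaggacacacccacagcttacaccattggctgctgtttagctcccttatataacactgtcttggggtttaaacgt
IFITM1: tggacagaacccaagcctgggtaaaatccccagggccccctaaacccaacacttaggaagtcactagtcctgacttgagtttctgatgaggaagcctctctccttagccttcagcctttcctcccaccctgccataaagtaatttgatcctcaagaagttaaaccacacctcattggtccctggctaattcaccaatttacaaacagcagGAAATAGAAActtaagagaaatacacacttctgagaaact

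NRF2 targets, the genes of the antioxidant response, were lower in 10 of 24 cases and higher in 3, with a median of -0.43. Of all genes tested, 18.1% were called in each direction, and the 3 higher were a smaller share. The iron storage chains FTH1 (779 and 832 against 2445 and 2205 CPM, -1.53 ± 0.16) and FTL (700 and 862 against 2534 and 2759 CPM, -1.76 ± 0.19) were both lower, with counts made uncertain by their many processed copies. OSGIN1, an oxidative stress response gene, had 26.0 and 24.1 CPM against 100 and 83.9 CPM (-1.88 ± 0.18), and GCLC, the catalytic subunit of glutathione synthesis, had 53.5 and 59.2 CPM against 125 and 142 CPM (-1.24 ± 0.13). The count called higher was 1 without shCDK8 library A, shTIP60 library A or shTIP60 library B.

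Cytosolic heat shock chaperones and ribosome biogenesis genes were higher in shCDK8. All 18 chaperone genes had a positive fold change and 10 were called higher (18.1% of all genes were), with a median of 0.63. The HSP90 partners AHSA1 (232 and 225 against 117 and 120 CPM, 0.95 ± 0.15) and STIP1 (499 and 474 against 264 and 242 CPM, 0.94 ± 0.15) had the smallest adjusted p. Of 28 ribosome biogenesis genes, 13 were called higher (18.1% of all genes were), with a median of 0.41. BOP1, a factor of large subunit assembly, had 88.9 and 75.2 CPM against 35.8 and 33.9 CPM (1.24 ± 0.25), and UTP20 had 36.0 and 34.5 CPM against 21.7 and 21.2 CPM (0.72 ± 0.14). These counts were less firm: 6 chaperone genes were called without shTIP60 library B, and the ribosome biogenesis count was 6, 7, 5 and 8 without shCDK8 A, shCDK8 B, shTIP60 A and shTIP60 B.

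Lists of signalling genes were read against the 18.1% of all genes called in each direction. Of 23 TGF-beta, BMP and SMAD genes, 3 were called higher, a share below that of all genes, and 9 lower, a share above it, with a median of -0.30. BMP4, a bone morphogenetic ligand, had 1239 and 1267 CPM in shCDK8, 282 and 268 CPM in shTIP60 and 78.4 and 76.3 CPM in shNT (2.19 ± 0.17). The ligand TGFB2 was higher (9.46 and 10.8 against 1.97 and 1.70 CPM, 2.46 ± 0.27) and the matrix protein TGFBI lower (1.16 and 1.27 against 4.88 and 5.26 CPM, -2.06 ± 0.30). Of 19 Wnt feedback and beta-catenin genes tested, 3 were higher, RNF43 above all, again below the share of all genes, and 7 lower. The secreted Wnt inhibitor DKK1 had 475 and 512 CPM against 1637 and 1485 CPM (-1.66 ± 0.16), with 375 and 400 CPM in shNT. The ligand WNT6 (-2.07 ± 0.32) and the receptor EPHB3 (-0.92 ± 0.15) were lower too. With the replicate block 5 genes of the Wnt list were higher.

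Of 14 EGF family ligands and ERBB pathway genes, 4 were called higher and 1 lower, against 18.1% of all genes in each direction. Besides NRG1 the higher ones included the feedback inhibitors SPRY4 (194 and 254 against 81.8 and 85.9 CPM, 1.42 ± 0.23) and SPRY2 (1.16 ± 0.19) and the ligand TGFA (0.76 ± 0.14). For SPRY4 shNT had 201 and 248 CPM, near shCDK8. With the replicate block 2 of this list were lower. Of 30 immediate early and serum response genes, 7 were higher and 8 lower, against 18.1% of all genes in each direction. KLF4, a transcription factor of epithelial differentiation, had 248 and 306 CPM against 57.3 and 58.7 CPM (2.25 ± 0.16), and DUSP6, a phosphatase of ERK, had 336 and 382 CPM against 124 and 107 CPM (1.64 ± 0.18). DUSP1 and CTGF were the most lowered of this list and are described below. The count of this list called lower was 5 without shCDK8 library A or shTIP60 library A.

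Of 26 p53 target genes, 10 were higher and 3 lower, with a median of 0.25, and the share called lower was below the 18.1% of all genes. BAX, a pore-forming apoptosis protein, had 60.4 and 66.2 CPM against 139 and 142 CPM (-1.15 ± 0.13), while the nuclease AEN had 122 and 119 CPM against 53.4 and 52.0 CPM (1.19 ± 0.19). C12orf5, the p53-induced phosphatase TIGAR, was higher at 15.7 and 11.5 CPM against 6.23 and 4.87 CPM (1.29 ± 0.19). Of 19 NF-kB subunits and inflammatory targets, 3 were higher and 3 lower, in each direction a smaller share than the 18.1% of all genes. The adhesion molecule ICAM1 (3.46 and 3.19 against 8.42 and 11.6 CPM, -1.59 ± 0.21), the cytokine IL18 (23.4 and 22.5 against 93.1 and 106 CPM, -2.11 ± 0.28) and TNFAIP2 (-1.19 ± 0.16) were the lower ones, and the apoptosis inhibitor BIRC3 was among the higher (1.29 ± 0.22). With the replicate block, 5 genes of this list were called higher.

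The lists of ATF4 targets, cholesterol synthesis, unfolded protein response and respiratory chain genes gave counts that single libraries decided. Of all genes tested, 18.1% were called in each direction. In each of these lists the direction with fewer calls had a smaller share than that. Of 23 ATF4 targets, 7 were higher and 3 lower, and the 7 became 4, 3 and 2 without shCDK8 A, shCDK8 B and shTIP60 A. Among them CEBPB, a stress-induced transcription factor, was lower (77.2 and 62.4 against 298 and 271 CPM, -2.03 ± 0.17) and the serine synthesis enzyme PSAT1 higher (72.8 and 63.2 against 24.4 and 29.1 CPM, 1.35 ± 0.16). Of 26 cholesterol synthesis genes and SREBP targets, 3 were higher and 7 lower. INSIG1, the sterol sensor partner, had 114 and 98.8 CPM against 264 and 245 CPM (-1.26 ± 0.20). The 7 became 2 without shCDK8 B and 3 without shTIP60 B, and the 3 became 0 without shCDK8 A and 1 without each of the other libraries. The count of 0 came from edgeR with 2 at an unadjusted p under 0.05. With the replicate block 5 were higher.

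Of 20 endoplasmic reticulum chaperones and unfolded protein response genes, 6 were lower and 1 higher, against 18.1% of all genes in each direction. The chaperone HSPA5 had 847 and 1219 CPM against 1779 and 1946 CPM (-0.85 ± 0.20), and its call did not hold without shCDK8 library A (adjusted p = 0.0754). HERPUD1, DNAJB9 and CRELD2 likewise lost their calls without shCDK8 A or shTIP60 B, and DNAJB9 and CRELD2 also without shTIP60 A. The 6 lower became 2 without shTIP60 A or shTIP60 B and 0 without shCDK8 A (edgeR, with 2 at an unadjusted p under 0.05), and 2 were higher with the replicate block. Of 36 nuclear-encoded respiratory chain genes, 9 were higher and 2 lower, and the 9 became 5, 4, 3 and 3 without shCDK8 A, shCDK8 B, shTIP60 A and shTIP60 B. The 2 lower became 1 without shTIP60 B, 0 without shCDK8 A or shTIP60 A (edgeR, with 1 and 3 at an unadjusted p under 0.05) and 4 with the replicate block. For the respiratory chain list, too, the share of all genes was 18.1% in each direction, and the 2 of 36 lower fell under it. The ATP synthase subunit ATP5B had 1554 and 1633 CPM against 932 and 949 CPM (0.76 ± 0.13).

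Partners of the targeted proteins were measured as well. Of the 7 genes of the Mediator kinase module, CDK8 was the one called lower, and MED13L (292 and 321 against 157 and 163 CPM, 0.94 ± 0.15) and CDK19, the paralogue of CDK8 (42.6 and 42.1 against 23.2 and 23.6 CPM, 0.85 ± 0.23), were called higher. Of all genes tested, 18.1% were called in each direction, and the 1 of 7 lower was the target itself. In shNT MED13L had 310 and 381 CPM and CDK19 38.7 and 50.0 CPM, near the shCDK8 level. CDK19 did not hold without shTIP60 library A (adjusted p = 0.0553). Of 18 genes of the TIP60 complex, 4 were higher, near the 18.1% of all genes, among them KAT5, which is the target itself, the ATPase RUVBL1 (177 and 157 against 100 and 101 CPM, 0.73 ± 0.18) and VPS72 (0.54 ± 0.12). The 3 lower were also near the 18.1% of all genes. EPC2, the scaffold subunit with the smallest adjusted p of the lower ones (-0.49 ± 0.16), did not hold without shCDK8 B, shTIP60 A or shTIP60 B. The 3 lower became 1 without shTIP60 B, 0 without shCDK8 B or shTIP60 A (edgeR, with 2 and 3 at an unadjusted p under 0.05) and 5 with the replicate block.

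**Figure D2:**
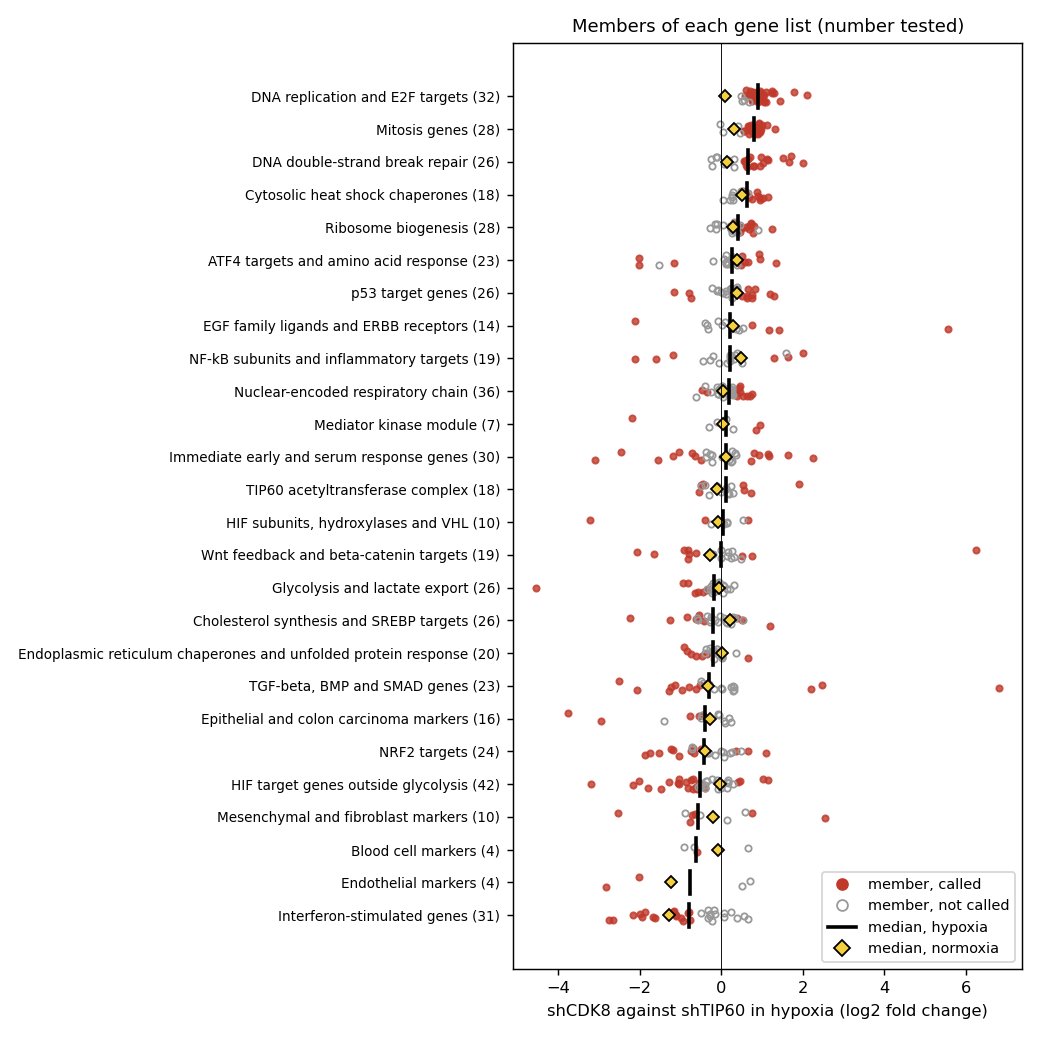
Log2 fold change of shCDK8 over shTIP60 in hypoxia for each tested member of the 26 gene lists, ordered by median; filled points were called, open points were not, black bars are medians in hypoxia and diamonds are medians in normoxia. DNA replication, mitosis and break repair genes lie to the right (medians 0.90, 0.79 and 0.64), and HIF targets and interferon-stimulated genes to the left (-0.51 and -0.78).

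The same 2 lines were compared in normoxia with 4 other libraries, so the contrasts share no library. There 4386 genes were called (28.3%), 1967 higher in shCDK8 (12.7%) and 2419 lower (15.6%). A total of 3257 genes were called in the same direction at both oxygen levels, 58.0% of the hypoxia calls and 74.3% of the normoxia calls, and 8 were called in opposite directions. Of the hypoxia calls, 95.6% had the same sign in normoxia. Across genes, which are not independent replicates, the fold changes had Pearson r = 0.84 and Spearman rho = 0.75, and the points share the 2 lines. TM4SF18 (8.81 ± 0.43), RNF43 (7.03 ± 0.24), VSNL1 (6.28 ± 0.37), NRG1 (5.33 ± 0.25) and GPR15 (4.80 ± 0.53), a chemoattractant receptor, were the most raised in normoxia. GJA1, F10 (-8.17 ± 0.38), ALPP, ALPPL2 and FSTL4, a follistatin-like gene at 19.2 and 17.1 CPM in shTIP60 and under 0.1 CPM in shCDK8, were the most lowered. All of these but GPR15 and FSTL4 were also among the leading genes in hypoxia. The normoxia count was 2883, 2522 and 2729 without shCDK8 normoxia B, shTIP60 normoxia A and shTIP60 normoxia B.

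**Figure D3:**
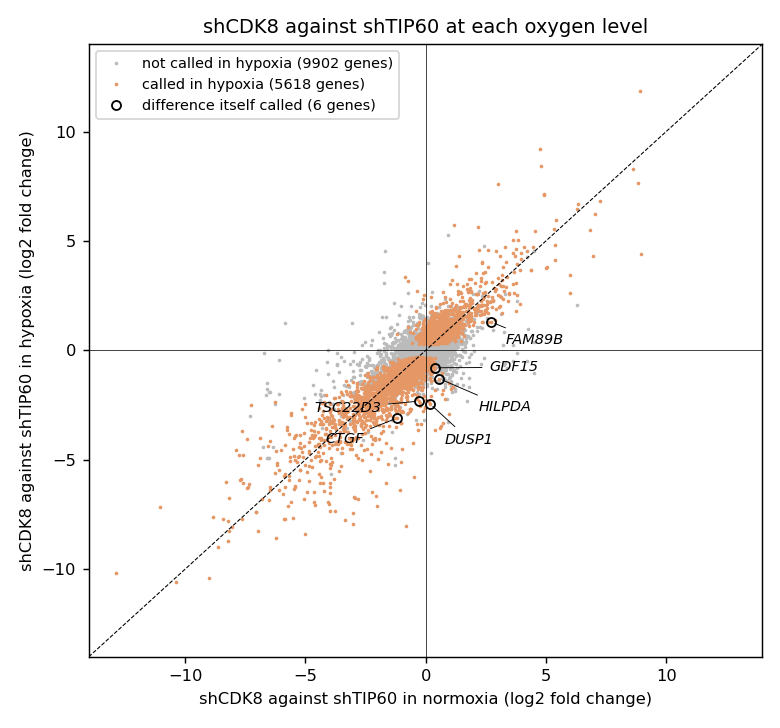
Log2 fold change of shCDK8 over shTIP60 in normoxia (x axis) and hypoxia (y axis) for the 15520 genes tested, with genes called in hypoxia in orange, the dashed line marking equal values, and circles marking the 6 genes whose fold change was called different between oxygen levels. Most genes lie along the dashed line, and the 6 circled genes lie below it.

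Whether the difference between the lines itself differed between oxygen levels was tested as an interaction. An unadjusted p under 0.05 was reached by 1515 genes, 866 with a higher shCDK8 to shTIP60 ratio in hypoxia and 649 with a lower one. The interaction was called for 6 genes (0.0387%), all with a lower ratio in hypoxia in this fit. The count depended on the fit: it was 315 with the replicate block, 197 with DESeq2 and 151 with only the 4 groups concerned, and 1 to 3 without any of the 8 libraries except shCDK8 normoxia A, without which it was 13. DUSP1 (chromosome 5, 172195099 to 172198198), a phosphatase of stress kinases, had 13.1 and 10.5 CPM in shCDK8 and 9.22 and 11.3 CPM in shTIP60 in normoxia, with overlapping libraries. In hypoxia it had 17.8 and 19.3 CPM in shCDK8 and 104 and 98.9 CPM in shTIP60, so the interaction was -2.64 ± 0.24 (adjusted p = 1.35e-04), and shNT went from 8.01 and 7.83 to 50.6 and 66.3 CPM. The DUSP1 gap thus appeared in hypoxia.

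HILPDA (chromosome 7, 128095903 to 128098472), a HIF target of lipid droplets, had 29.1 and 29.8 CPM in shCDK8 and 19 and 20.7 CPM in shTIP60 in normoxia, and 102 and 151 CPM against 308 and 310 CPM in hypoxia (interaction -1.86 ± 0.28, adjusted p = 0.0290). TSC22D3, a glucocorticoid-induced leucine zipper gene, had 8.32 and 8.07 against 10.1 and 9.73 CPM in normoxia and 19.4 and 23.0 against 114 and 97.8 CPM in hypoxia (-2.04 ± 0.33, adjusted p = 0.0358). HILPDA was on opposite sides at the 2 oxygen levels, and so was the stress cytokine GDF15, with 195 and 177 against 135 and 149 CPM in normoxia and 487 and 464 against 832 and 818 CPM in hypoxia (-1.19 ± 0.18, adjusted p = 0.0290). CTGF, a secreted matrix protein, had 4.34 and 4.54 against 8.39 and 11.7 CPM in normoxia and 5.38 and 7.14 against 56.5 and 50.0 CPM in hypoxia (-1.91 ± 0.31, adjusted p = 0.0358). FAM89B differed in the other way, since it was higher in shCDK8 at both levels, at 98.1 and 89.7 against 12.8 and 15.4 CPM in normoxia and at 116 and 113 against 50.6 and 42.9 CPM in hypoxia (-1.45 ± 0.20, adjusted p = 0.0141). Of the 6 genes, DUSP1 kept its call without any 1 of the 8 libraries. FAM89B lost its call in 4 of the 8 leave-one-out fits, HILPDA in 6, GDF15 in 7, and TSC22D3 and CTGF in all 8. With library totals GDF15, TSC22D3 and CTGF were not called (adjusted p = 0.0507 for each).

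**Figure D4:**
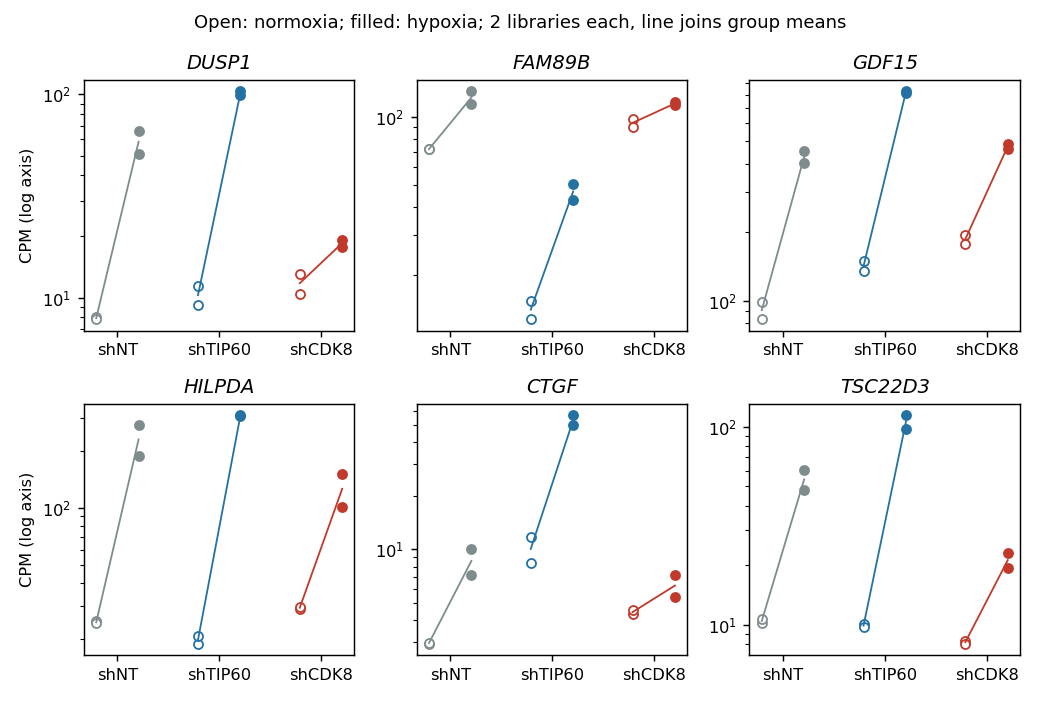
Level in CPM (log axis) of the 6 genes whose shCDK8 to shTIP60 difference was called different between oxygen levels, with open points for normoxia, filled points for hypoxia, 2 libraries per group, and lines joining group means for shNT, shTIP60 and shCDK8. DUSP1, TSC22D3 and CTGF climb steeply in shTIP60 and little in shCDK8.

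The replication genes had the largest difference between the medians at the 2 oxygen levels among the 26 lists: their median fold change was 0.10 in normoxia, where 2 of 32 were called higher, and 0.90 in hypoxia. In normoxia 12.7% of all genes were called higher, a larger share. The interaction called 0 of the 32 with edgeR, and DESeq2 called 3. An unadjusted p under 0.05 in the direction of a higher ratio in hypoxia was reached by 28, and the lowest adjusted p was 0.139. Among all 15520 genes tested, 866 had an unadjusted p under 0.05 in that direction, a smaller share. With the replicate block 18 of the 32 were called. CLSPN had 56.0 and 54.0 CPM in shCDK8 and 48.3 and 42.8 CPM in shTIP60 in normoxia, against 28.2 and 24.1 and 8.51 and 6.63 CPM in hypoxia, so its level was lower in hypoxia in both lines (interaction 1.51 ± 0.38, adjusted p = 0.167). Mitosis genes had medians of 0.32 and 0.79 in normoxia and hypoxia and 0 interaction calls with edgeR or DESeq2, with 9 of 28 at an unadjusted p under 0.05. Repair genes had medians of 0.15 and 0.64 and 0 interaction calls with edgeR, 14 of 26 at an unadjusted p under 0.05, 5 calls with DESeq2 and 8 with the replicate block. The 9 mitosis genes and 14 repair genes all had a higher ratio in hypoxia. Both were larger shares than the 866 of all 15520 genes.

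HIF targets outside glycolysis had medians of -0.04 in normoxia, with 3 higher and 9 lower of 42, and -0.51 in hypoxia, and HILPDA was the one interaction call of the list. In normoxia 12.7% of all genes were higher and 15.6% lower, so the 3 higher were a smaller share. Another 9 had an unadjusted p under 0.05 in the same direction, and 4 in the other. Among all 15520 genes tested, 649 had an unadjusted p under 0.05 with a lower ratio in hypoxia and 866 with a higher one. The shares of the list were larger in both directions. DESeq2 and the replicate block each called 5 of the 42 lower. Interferon-stimulated genes were lower at both levels, with medians of -1.29 in normoxia (19 of 31 called lower, against 15.6% of all genes) and -0.78 in hypoxia. Their interaction gave 0 calls with edgeR and DESeq2, and 2 of 31 had an unadjusted p under 0.05, both with a higher ratio in hypoxia. That was near the share of all genes in that direction. NRF2 targets were also alike at both levels in their medians, -0.41 in normoxia and -0.43 in hypoxia.

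**Figure D5:**
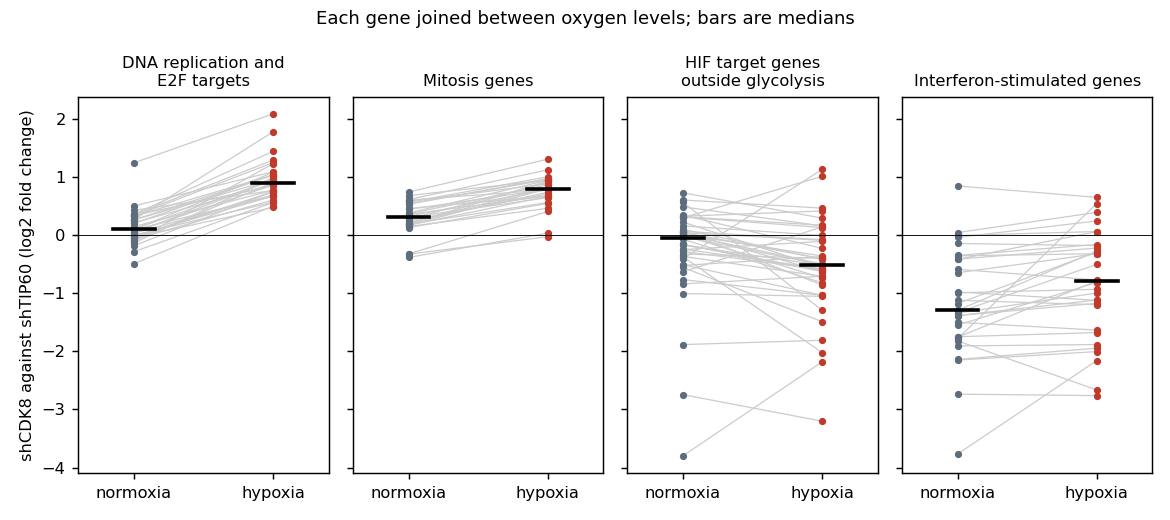
Log2 fold change of shCDK8 over shTIP60 in normoxia (left of each panel) and hypoxia (right) for the tested members of 4 lists, each gene joined by a line, with bars at the medians. Medians go from 0.10 to 0.90 for replication, 0.32 to 0.79 for mitosis, -0.04 to -0.51 for HIF targets and -1.29 to -0.78 for interferon-stimulated genes.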

How the data were processed

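Poly(A) RNA of 16 libraries was converted to size-selected libraries and read on an Ion Torrent Proton sequencer, per the labels' protocols. The deposited table held raw counts for each gene symbol, with 1 column per library and whole numbers that sum to a different total in each, so the authors had not scaled them. The submitters' processing notes name GSNAP, HTSeq (0.5.4p5), DESeq (1.14.0), R (3.0.3) and hg19. The annotation, strand setting and read filters are not given in the sources used here, so genes that overlap or have near-identical copies cannot be told apart.

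Testing of the counts used edgeR 4.0.16 under R 4.3.3. Low-count genes were removed by group (minimum count 10, total 15), which left 15520 of 23669 genes (65.6%). A robust quasi-likelihood model with trimmed mean of M-values (TMM) factors had 1 term for each group and was run over all 16 libraries, leaving 8 residual degrees of freedom, with a biological coefficient of variation of 0.132. Two-sided p-values were adjusted over all genes tested (Benjamini-Hochberg, 0.05). The interaction was the hypoxia difference minus the normoxia difference. CPM used TMM factors. The floor was 3 counts, and 95% counting intervals are given for groups with 1 to 3 counts. Replicates correlated at Pearson r of 0.988 to 0.994 across genes and differed by more than counting error, at 8.71 to 66.3 times its variance. The fit was tested on simulated counts.

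Genes were named by a rule: CDK8 and KAT5; the called genes with extreme fold changes, 12 per direction in hypoxia and 5 in normoxia and in the interaction, if the higher group reached 5 CPM and the libraries did not overlap; and up to 4 members per list with the smallest adjusted p. Locus identifiers and pseudogenes were passed over. A few genes that the rule names are not reported here. The members and the 26 lists were chosen with earlier results of these data known. Coordinates came from GENCODE release 44 on GRCh37. Promoter entries matched 11507 of the 15520 genes (74.1%).

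Headers carry no replicate numbers. The series of library numbers pair the libraries: over 28 pairs of groups the difference between the series correlated at 0.160 to 0.673 across 10077 genes (0.233 for the compared groups), so the series were also fitted as a replicate block. Other alternatives were DESeq2 1.42.0, relative log expression (RLE) factors, library totals, other filters, a fit of the compared groups alone, a 1.5-fold threshold and leaving out each library, where a lone library is assumed to vary like the other groups.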

Additional observations from a re-analysis of the deposited data

Results flagged for a closer look

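The difference between shCDK8 and shTIP60 was larger or smaller in hypoxia than in normoxia by the interaction test for 6 genes, and all 6 had a negative value, meaning a lower shCDK8 to shTIP60 ratio in hypoxia. Not every fit was one-sided. A higher ratio in hypoxia was called for 184 of 315 genes with the replicate block and 83 of 197 with DESeq2. It was called for 63 of 151 with only the groups compared and 128 of 207 with no filter except 1 count. With RLE factors, library totals, the filter at 5 CPM or the 1.5-fold test all calls were lower. In the main fit the values were -2.64 ± 0.24 (SE) for DUSP1 with an adjusted p of 1.35e-04 and -1.45 ± 0.20 for FAM89B with 0.0141. They were -1.86 ± 0.28 for HILPDA and -1.19 ± 0.18 for GDF15, both with 0.0290. They were -2.04 ± 0.33 for TSC22D3 and -1.91 ± 0.31 for CTGF, both with 0.0358. DUSP1 and TSC22D3 were not called in normoxia, FAM89B and CTGF were called in the same direction at both oxygen levels, and HILPDA and GDF15 were called in opposite directions.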

How the results depend on the processing

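With 2 libraries per group, precision is limited. The hypoxia count of 5618 was 5557 with RLE factors, 5880 with DESeq2, 4128 with a filter at a mean of 5 CPM, 7117 with the replicate block and 7802 with only the groups compared. Tested against 1.5-fold it was 1841, and the counts for normoxia, shCDK8 against shNT and shTIP60 against shNT were then 1490, 1019 and 934. Leaving out each library in turn gave 3532 to 3869 in hypoxia, 2522 to 3892 in normoxia, 2209 to 3897 for shCDK8 against shNT and 1726 to 3090 for shTIP60 against shNT. The interaction count of 6 was 3 with library totals, 207 with no filter except 1 count, 12 with the filter at 5 CPM, 1 against 1.5-fold, 315 with the replicate block, 151 with only the groups compared, 197 with DESeq2 and 1 to 13 without each library, and the cause was not tested. Of 148 results for single genes, 105 kept their direction and side of the threshold under every alternative run. KDR and CD14, not called, reversed sign without shCDK8 hypoxia library B, at -0.14 and -0.085, and ran from there to 1.23 and 1.22 without another library. Besides the changes given with the results, the replicate block brought ESAM past the threshold (adjusted p = 0.0290) and 1 endothelial marker called higher, and it changed no other call of a named gene.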

Other observations

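Genes of chromosome 19 were called lower in shCDK8 more often than genes of other chromosomes, a pattern noticed in these data and given as values with no test. In hypoxia 306 of its 1075 tested genes were lower (28.5%) and 101 higher (9.40%), with a median log2 fold change of -0.15, and the median in normoxia was -0.20. Of all genes tested, 18.1% were called in each direction in hypoxia, and 15.6% were lower and 12.7% higher in normoxia. Of the 181 zinc finger genes named ZNF or ZFP on this chromosome, many of which encode transcriptional repressors, 51 were lower and 7 higher (median -0.27), and in normoxia 58 were lower and 2 higher (median -0.43). Of the 257 such genes on other chromosomes, 18 were lower and 34 higher in hypoxia (median 0.06), both smaller shares than the 18.1% of all genes. The other 894 genes of chromosome 19 had 255 lower and 94 higher (median -0.13), a share lower that was close to that of the zinc finger genes. Against shNT in hypoxia the 2 groups differed. Of all genes, 13.4% were lower and 14.4% higher in shCDK8, and 10.5% were lower and 11.3% higher in shTIP60. The chromosome 19 zinc finger genes had medians of -0.44 in shCDK8 (66 lower, 5 higher) and -0.20 in shTIP60 (17 lower, 7 higher). In shTIP60 the 17 of 181 lower were near the share of all genes. The other chromosome 19 genes had medians of 0.01 in shCDK8 (151 lower, 89 higher) and 0.12 in shTIP60 (45 lower, 137 higher).

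Chromosome 19 also had the highest median GC content of transcripts (59.9%). Across the 14535 tested genes with a value (93.7%), the fold change had a Spearman rho of -0.20 with GC content in hypoxia and -0.26 in normoxia, and of 0.06 with transcript length in hypoxia, across genes that share libraries and are not replicates. The part of GC content in the chromosome 19 values was not tested.

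LOC285401, passed over by the naming rule as a locus identifier and chosen after its values were seen, had 0 counts in both shTIP60 hypoxia libraries and a mean of 13.7 CPM in shCDK8, at least 299.8-fold higher against a floor of 3 counts over the group. It had 0 counts in both shNT hypoxia libraries.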
